A study of Caenorhabditis elegans with 16 samples.

Results

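The core histone genes of Caenorhabditis elegans, whose symbols start with his-, were followed across 4 genotypes. Every protein-coding gene of the WBcel235 annotation with such a symbol was taken, apart from his-24, which encodes a linker histone H1. This gave 71 genes, of which 59 were listed among the 23758 genes of the deposited count tables and 12 were not. By the protein encoded, 17 of the 71 were H2A genes (13 listed), 17 were H2B genes (11 listed), 21 were H3 genes (20 listed) and 16 were H4 genes (15 listed).

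RNA was sequenced from whole animals on day 1 of adulthood, grown at 20 °C, with 4 replicate libraries of each genotype and 16 in all. The genotypes were wildtype (N2), ubql-1(tm1574), called the ubql-1 mutant below, hsf-1 OE, and the cross of these strains, hsf-1 OE; ubql-1(tm1574), called the double strain. The ubql-1(tm1574) allele is a deletion in the ubiquilin gene ubql-1, and the hsf-1 OE strain carries uthIs235, 1 integrated array in which the promoter of sur-5 drives the heat shock factor gene hsf-1 and that of myo-2, a pharyngeal muscle gene, drives tdTomato as a marker. The double strain therefore carries the same array as hsf-1 OE. Whole animals include a germline, eggs in the uterus and all somatic tissues, and in such samples fewer cells of a type and less RNA per cell cannot be told apart.

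Library totals ran from 18202151 to 30524762 counts, with a median of 22241519, and his- genes took between 0.0478% and 0.0579% of a library. The mRNA of hsf-1 was not raised in the libraries labelled hsf-1 OE, with 1994 ± 368 normalized counts (SD, n = 4) against 2412 ± 137 in wildtype (log2 fold change -0.13, SE 0.13, adjusted p = 0.39 by edgeR's quasi-likelihood test). It was 2828 ± 362 in the libraries of the double strain against 2288 ± 52.02 in the ubql-1 mutant (log2 fold change 0.36, SE 0.09, adjusted p = 0.0058). The mRNA of ubql-1 went with its labels, at 1788 ± 124 and 1373 ± 102 normalized counts in the 2 mutant genotypes against 4055 ± 106 in wildtype. Every difference below that is drawn from hsf-1 OE is therefore one between libraries labelled so, which carry uthIs235, and not one shown to follow from a higher hsf-1 mRNA level.

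Core histones form the protein spool of the nucleosome, in which pairs of H2A, H2B, H3 and H4 are wrapped by DNA. Most animal core histone genes are present in many near-identical copies that lack introns, are transcribed in S phase of the cell cycle, and give mRNAs that end in a stem-loop in place of a poly(A) tail. A second kind, the replication-independent or replacement histones such as H3.3, is made throughout the cell cycle from genes with introns whose mRNAs are polyadenylated. The libraries were made from RNA bound to poly-dT beads, so a his- value here is the level of his- RNA that such beads capture, in which a difference in tails and one in transcript number cannot be told apart.

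The annotation placed 58 of the 71 his- genes in 10 clusters of 4 or more, with no more than 10 kb between neighbours. Of the 71, 64 had a single exon in all annotated transcripts, and 6 had an intron in every annotated transcript. These 6 were his-35 (H2A), his-41 (H2B) and his-37 (H4), which lie side by side on chromosome V (9544659 to 9547607), and the H3 genes his-71 (X, 7981382 to 7982070), his-72 (III, 12367475 to 12369050) and his-74 (V, 12659704 to 12660330). All 6 also had an annotated 3′ untranslated region.

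The 6 genes with introns held between 87.8% and 92.1% of the his- counts of a library. Of the other 53 listed genes, 26 had no more than 50 counts over all 16 libraries, while 13 of all 59 listed genes had more than 1000. The annotation gives 36 of the 71 genes a name that it also gives to another copy. Of these, 11 were not listed, and none of the 25 that were listed had more than 186 counts over the 16 libraries. How reads that match several copies were counted is not given in the sources used here, so the values of such copies are uncertain and low values of them do not show low expression.

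Levels were compared between genes as normalized counts per kilobase of the gene length in the deposited tables. Normalization here means scaling the counts of each library to a common library size with TMM factors computed over the 16 libraries. By this measure his-72, which encodes H3.3, and his-74, which encodes an H3.3-like protein, stood first and second over the 16 libraries. In wildtype his-74 had 7709 ± 318 and his-72 had 6554 ± 781 normalized counts per kb (SD, n = 4). The third was his-35, an H2A gene, with 2725 ± 257, followed by his-37 with 2329 ± 120, his-41 with 1568 ± 135 and his-71, the other H3.3 gene, with 945 ± 165. The highest intronless gene was the H2A gene his-68, with 833 ± 101 normalized counts per kb in wildtype.

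**Figure D1:**
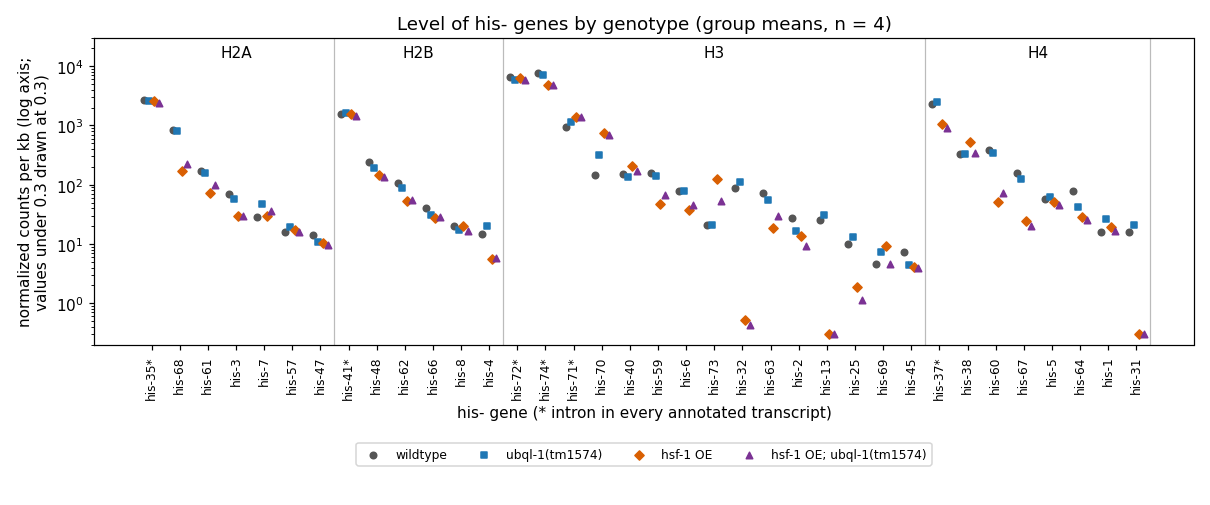
Normalized counts per kb (log axis, group means of 4 libraries, no error drawn) of the his- genes with a mean of at least 3 normalized counts, ordered by histone and level, in the 4 genotypes. The genes with introns (starred) stand at the top of each histone; his-32, his-13 and his-31 lie at or under 0.523 in the 2 genotypes that carry uthIs235, and his-70 and his-73 lie above their wildtype level there.

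Of the 59 listed genes, 24 passed the filter on low counts in the comparison of hsf-1 OE with wildtype. Genes count as called where the adjusted p (Benjamini-Hochberg) was below 0.05 and the log2 fold change was beyond 1 in either direction. Among these 24, 10 fell and 2 rose in libraries labelled hsf-1 OE, where 3.6% of all 14794 genes tested were lower and 22.6% were higher. Those that fell were his-3, his-61 and his-68 (H2A), his-32, his-59 and his-63 (H3), and his-37, his-60, his-64 and his-67 (H4), and those that rose were the H3 variants his-70 and his-73. Among the genes that fell, his-3, his-32, his-63, his-64 and his-67 passed the filter only through the wildtype libraries. Among those that rose, his-73 passed it only through the hsf-1 OE libraries. The calls of these genes, and the counts that hold them, are therefore descriptions. No H2B gene passed both thresholds in this fit, though his-62 did under some of the alternatives. With adjusted p alone, 12 were lower and 5 higher, where 67.3% of all genes passed, 28.7% lower and 38.6% higher.

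The array was also compared within the mutant, where no library is shared with the first comparison. Same-numbered libraries deviated together across the 2 comparisons, with correlations of at least 0.54 between hsf-1 OE and the double strain. These were at least 0.27 between wildtype and the ubql-1 mutant, so the 2 comparisons are not independent. Of 25 genes tested between the double strain and the ubql-1 mutant, 6 fell and 2 rose, where 1.87% of all genes were lower and 12.8% were higher. Those 6, his-32, his-37, his-59, his-60, his-67 and his-68, and the 2 that rose, his-70 and his-73, were also called in the first comparison with the same sign. Of these, his-32, his-67 and his-73 passed the filter only through the libraries where they were high, so their calls are descriptions. With adjusted p alone 12 of the 25 genes tested were lower and 3 higher, where 59.1% of all genes passed, 27.7% lower and 31.5% higher. The median log2 fold change of the his- genes tested was -0.74 in the first comparison and -0.47 in the second, beside 0.28 and 0.11 over all genes tested; genes that passed the filter only through a group where they were high had to differ, so these medians are descriptions. The scale matters for all of these values, since the median over all genes in the first comparison was 0.11 with the relative log expression (RLE) scaling of edgeR and 0.63 when scaled to cdc-42, pmp-3 and rpb-2, 3 genes often used as references in worms. With RLE 2869 of all genes were called higher and 890 lower, against 3341 and 532 with TMM, and the his- calls were 2 higher and 12 lower. When scaled to the 3 reference genes, 4 his- genes were called higher and 6 lower.

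**Figure D2:**
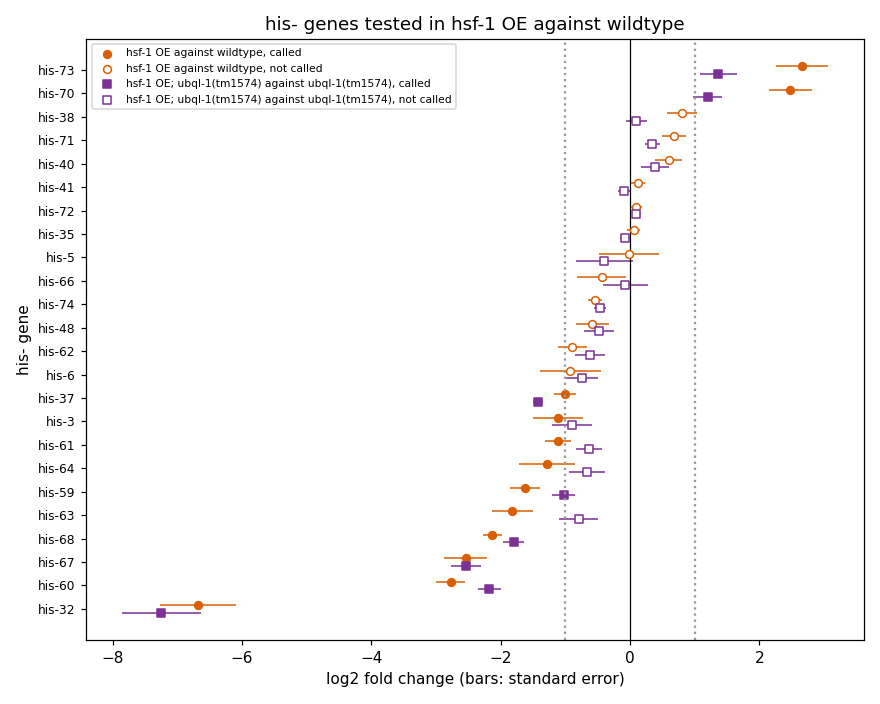
log2 fold changes (horizontal axis, bars are standard errors) of the 24 his- genes tested between hsf-1 OE and wildtype (circles) and between the double strain and the ubql-1 mutant (squares), with filled points for genes called and dotted lines at the fold threshold. The 10 genes called lower in hsf-1 OE stand together at the bottom, from his-37 down to his-32 at -6.68, and his-70 and his-73 lie to the right of the upper dotted line in both comparisons.

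The H2A gene his-68 and its neighbour his-67, an H4 gene, lie 1.064 kb from end to end on chromosome I (9988452 to 9989515) and are transcribed away from each other. For his-68 the 4 wildtype libraries gave 374, 476, 470 and 395 normalized counts, and the values were 412, 419, 465 and 381 in the ubql-1 mutant. They were 98.4, 98.1, 85.2 and 74.4 in hsf-1 OE and 117, 151, 108 and 88.6 in the double strain. Every library with the array was thus below every library without it. The log2 fold change was -2.13 (SE 0.15, adjusted p = 1.7e-05) against wildtype and -1.80 (SE 0.16, adjusted p = 2.2e-05) against the ubql-1 mutant. For his-67 the wildtype libraries had 51.7, 91.9, 84.6 and 61.2 and the mutant libraries 51.6, 68.3, 47.5 and 56.4. In hsf-1 OE there were 7.88, 15.3, 14.4 and 6.85, and in the double strain 8.93, 8.03, 10.5 and 8.997. The groups with and without the array did not overlap, and the log2 fold changes were -2.54 (SE 0.34, adjusted p = 0.00028) and -2.54 (SE 0.24, adjusted p = 2.6e-05). Since his-67 passed the filter on low counts only through the libraries without the array, its fitted values are descriptions. With no filter its adjusted p against wildtype was 8.15e-05.

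The gene next to his-68, at 185 bases, is alg-5, which encodes an Argonaute protein and is no histone gene. Its normalized counts were 3530 ± 298 among wildtype libraries and 3117 ± 141 among those of the mutant, against 903 ± 152 in hsf-1 OE and 1230 ± 166 in the double strain (SD, n = 4). Its log2 fold change was -1.83 (SE 0.10, adjusted p = 3.9e-06) and -1.28 (SE 0.10, adjusted p = 5.5e-06). The part of the neighbouring transcript in the his-67 and his-68 values was not tested.

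The 4 genes his-59 to his-62, 1 for each core histone, lie within 2.83 kb on chromosome IV (7485834 to 7488659). The H4 gene his-60 fell furthest of them. Its normalized counts were 162, 214, 184 and 124 among wildtype libraries, while the ubql-1 mutant gave 159, 178, 124 and 156. In hsf-1 OE it had 22.6, 22.5, 22.6 and 22.5, and in the double strain 32.4, 34.8, 35.5 and 27.7. Its log2 fold change was -2.78 (SE 0.22, adjusted p = 3.4e-05) against wildtype and -2.18 (SE 0.18, adjusted p = 9.5e-06) against the ubql-1 mutant.

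The H3 gene of the cluster, his-59, went from 119.2 normalized counts on average in wildtype to 35.02 in hsf-1 OE (log2 fold change -1.63, SE 0.23, adjusted p = 0.00038), and from 106 in the ubql-1 mutant to 49.6 in the double strain (-1.02, SE 0.18, adjusted p = 0.0011). The second of these calls lies near the fold threshold, and was -0.92 without replicate 1 of the double strain and -0.96 without replicate 2 of the ubql-1 mutant. The H2A gene his-61 had 81.6 in wildtype and 34.2 in hsf-1 OE (log2 fold change -1.12, SE 0.20, adjusted p = 0.0012), and its value of -0.63 in the mutant background was within the fold threshold. The H2B gene his-62 was at -0.89 (SE 0.23, adjusted p = 0.0067) and -0.62 (SE 0.23, adjusted p = 0.039), within the fold threshold in both. Against wildtype it passed both thresholds with DESeq2 (-1.08), with RLE (-1.05), with no filter (-1.02) and in 1 fit of all 16 libraries (-1.02). The libraries of his-61 and his-62 with and without the array did not overlap in either comparison. The nearest gene that is no histone gene, rod-1, was at -0.46 (SE 0.10) and -0.33 (SE 0.10) on the log2 scale.

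**Figure D3:**
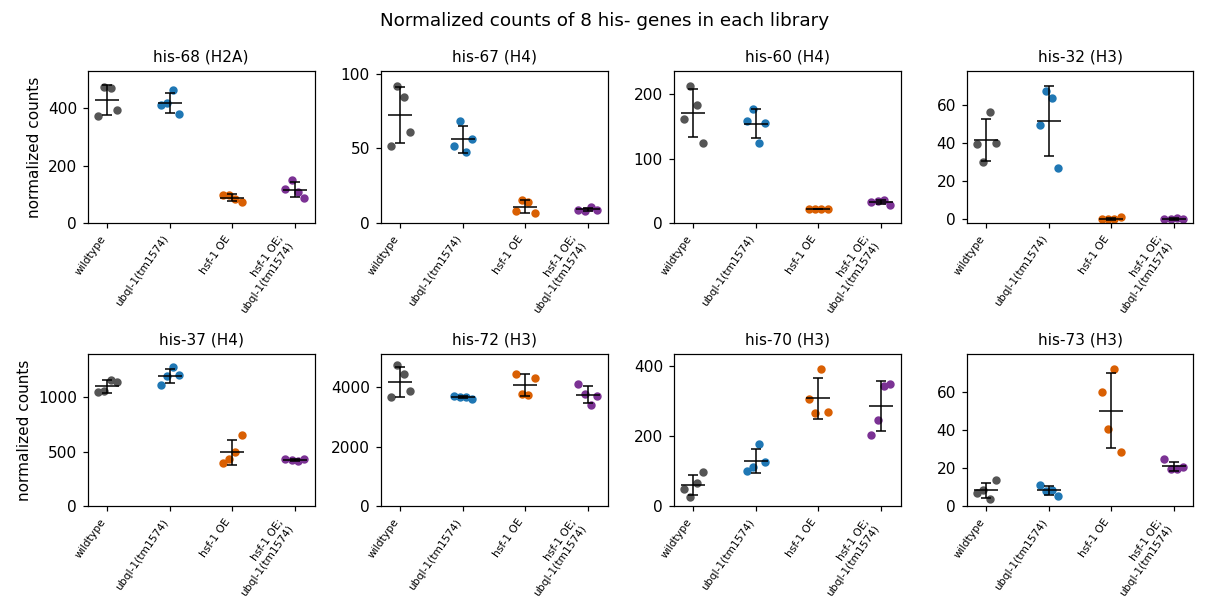
Normalized counts of 8 his- genes (1 point per library, horizontal bar and whiskers for the mean and SD, n = 4) in the 4 genotypes, on axes from 0 apart from that of his-32, which starts just below 0. The 8 libraries with uthIs235 lie below the other 8 for his-68, his-67, his-60, his-32 and his-37 and above them for his-70 and his-73, while those of his-72 overlap.

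The H3 gene his-32 (IV, 8334305 to 8334715) was nearly without counts in both genotypes with the array. Raw counts of 33, 25, 42 and 44 were found for wildtype and of 44, 57, 75 and 20 for the ubql-1 mutant, but 0, 0, 0 and 1 in hsf-1 OE and 0, 0, 1 and 0 in the double strain. After scaling for library size, wildtype had 169 times the level of hsf-1 OE (exact 95% interval from the counts 29.9 to 6727), and the ubql-1 mutant had 251 times that of the double strain (44.6 to 9979). These intervals cover counting error only. Since his-32 passed the filter on low counts only through the libraries without the array, its fitted value is a description; with no filter its adjusted p was 9.1e-06 and 2.1e-07.

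Beside it, the H4 gene his-31 (IV, 8333672 to 8333983) had 20 counts over the wildtype libraries and 26 over those of the mutant, and 0 over those of hsf-1 OE. It was not listed for the double strain and was set to 0 there. Set against a floor of 3 counts over the group, it was at least 7.83-fold lower in hsf-1 OE than in wildtype and at least 11.1-fold lower in the double strain than in the ubql-1 mutant. These bounds leave out the counting error of the higher group. The other 4 genes of this cluster, his-29, his-30, his-33 and his-34, were not listed. The closest other gene in the deposited tables, lys-10, a lysozyme gene 113 bases from his-31 and 739 bases from his-32, had 1.27 ± 1.10 normalized counts in wildtype and 13.7 ± 4.13 in hsf-1 OE. For nssp-43, at 3806 bases from his-31 and 4432 bases from his-32, these were 74.2 ± 16.9 and 159 ± 15.02, so neither gene was lower with the array.

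Low counts with the array were also seen over much of the largest cluster, 13 genes within 10.9 kb on chromosome II (13817760 to 13828697). Summed over its 12 listed genes there were 158 counts in wildtype and 142 in the ubql-1 mutant, against 30 in hsf-1 OE and 28 in the double strain. The H3 gene his-13 (13820210 to 13820620) had 37 and 46 counts without the array and 0 in hsf-1 OE, and was not listed for the double strain, where it was set to 0. Against the same floor of 3 counts this is at least 14.5-fold and 19.7-fold lower in the respective comparisons, again without the counting error of the higher group. The annotation gives his-13 the name of another copy, his-9, and it did not pass the filter on low counts. With no filter its adjusted p was 0.00075 and 0.0001. The H4 genes his-10 and his-14 had 27 and 26 counts over the wildtype libraries, and 4 and 1 over those of the mutant, and only 2 and 1 over those of hsf-1 OE, so that they were low in all 3 other genotypes. Wildtype replicate 1 had 0 counts of both. Of the remaining genes of the cluster, his-42 was not lower with the array, at 12 counts in hsf-1 OE and 18 in the double strain against 8 and 6 without it, and 17 of the 18 came from 1 library. The genes that flank the cluster were not lower: ZK131.11 had 681 ± 41.5 normalized counts in hsf-1 OE and 445 ± 75.1 in wildtype, and F08G2.4 had 196 ± 47.5 and 155 ± 23.8.

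**Figure D4:**
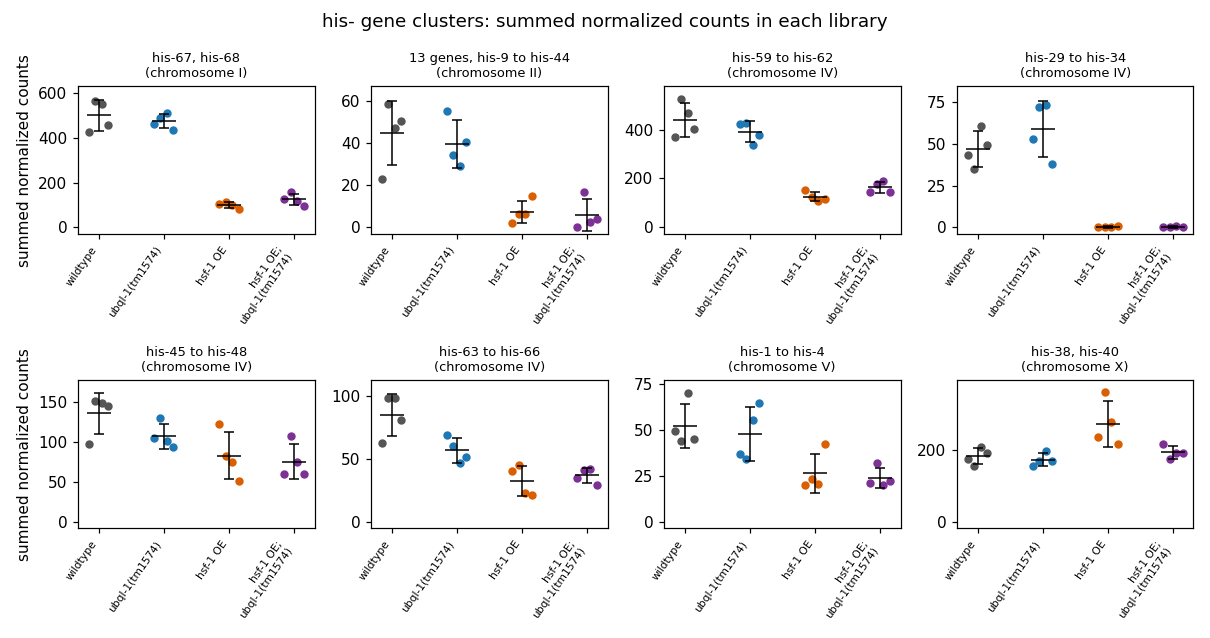
Summed normalized counts of 8 his- clusters (1 point per library, bar and whiskers for the mean and SD, n = 4) in the 4 genotypes. The clusters on chromosomes I and II and those of his-59 to his-62, his-29 to his-34 and his-63 to his-66 are lower in all 8 libraries with uthIs235, that of his-45 to his-48 overlaps, and the mean of his-38 with his-40 is highest in hsf-1 OE.

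Other intronless clusters differed less. The 4 genes his-63 to his-66 on chromosome IV (11400415 to 11407427) summed to 84.7 ± 16.9 normalized counts for wildtype, 56.5 ± 9.69 in the ubql-1 mutant, 32.4 ± 12.1 in hsf-1 OE and 36.7 ± 6.03 in the double strain (SD, n = 4). This cluster still summed lower in every library with the array (at most 44.98) than in every library without it (at least 46.65). Its H3 gene his-63 had a log2 fold change of -1.82 (SE 0.32, adjusted p = 0.00096) against wildtype, and of -0.80 (SE 0.30, adjusted p = 0.038) against the ubql-1 mutant, where the libraries overlapped. Its H4 gene his-64 was at -1.29 (SE 0.44, adjusted p = 0.025) and -0.67 (SE 0.28, adjusted p = 0.054). Its libraries overlapped in the first of these, and adjusted p was 0.056 without wildtype replicate 2, 0.073 without wildtype replicate 3 and 0.074 when scaled to the reference genes. In the his-1 to his-4 cluster on chromosome V, the H2A gene his-3 was at -1.12 (SE 0.38, adjusted p = 0.027) against wildtype, with adjusted p = 0.055 without wildtype replicate 1 and 0.066 without wildtype replicate 3. The H2B gene his-48 and the H4 gene his-5, each in a further cluster, did not pass (log2 fold changes -0.58, SE 0.25, and -0.02, SE 0.46). The H3 gene his-6 was at -0.92 (SE 0.48, adjusted p = 0.11) with hsf-1 OE libraries from 5.91 to 30.3 normalized counts, and at -1.64 without hsf-1 OE replicate 4, where it passed (adjusted p = 0.0063). It also passed with DESeq2 (-1.15, adjusted p = 0.043), with RLE (-1.11, adjusted p = 0.049) and in 1 fit of all 16 libraries (-1.08, adjusted p = 0.019). Against wildtype, his-3, his-6, his-63 and his-64 passed the filter on low counts only through the wildtype libraries, so their fitted values there are descriptions. With no filter their adjusted p was 0.016, 0.060, 0.00083 and 0.017 in that order.

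The pair his-38 (H4) and his-40 (H3) on chromosome X (7309564 to 7310520) was not among the genes called. Normalized counts of his-38 were 102, 97.8, 113 and 122 in wildtype and 143, 239, 191 and 116 in hsf-1 OE, with a log2 fold change of 0.80 (SE 0.24, adjusted p = 0.014) that is within the fold threshold. In the mutant background his-38 was at 0.10 (SE 0.16, adjusted p = 0.61) and his-40 at 0.39 (SE 0.21, adjusted p = 0.13). The pair lies 3994 bases from sur-5, the gene whose promoter drives hsf-1 in the array, and sur-5 itself was at -0.09 (SE 0.11) and -0.07 (SE 0.11) in the 2 comparisons. The part of the array in the his-38 values was not tested.

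Of the 6 genes with introns, 1 was called, his-37 (V, 9547105 to 9547607), an H4 gene. Its normalized counts were 1043, 1050, 1154 and 1131 among wildtype libraries, while the ubql-1 mutant gave 1104, 1188, 1267 and 1197. In hsf-1 OE it had 397, 429, 499 and 649, and in the double strain 436, 426, 412 and 431. Every library with the array was lower, with a log2 fold change of -1.0003 (SE 0.17, adjusted p = 0.00085) against wildtype and -1.42 (SE 0.08, adjusted p = 5.7e-07) against the ubql-1 mutant. The first lies on the fold threshold, and was -0.99 without wildtype replicate 3 and -0.65 when scaled to the 3 reference genes.

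Its neighbours of the same cluster were not called. For his-35 the log2 fold change was 0.06 (SE 0.10, adjusted p = 0.61) and -0.07 (SE 0.08, adjusted p = 0.44), and for his-41 it was 0.12 (SE 0.11, adjusted p = 0.34) and -0.09 (SE 0.09, adjusted p = 0.43). The first values of both turn negative with DESeq2 and with RLE scaling and the second positive when scaled to the reference genes, so no direction is given. The gene beside his-37, nstp-10, a nucleotide sugar transporter gene that overlaps it in the deposited intervals, was at -0.27 (SE 0.09) and -0.17 (SE 0.09). Whether counting used the strand is not given in the sources used here, so reads of the 2 cannot be told apart.

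The H3 genes are the largest histone class, and their make-up differed between the genotypes. As a share of the normalized counts per kb of all 20 listed H3 genes, his-74 took 48.2% ± 2.22 in wildtype and 47.2% ± 1.69 in the ubql-1 mutant, against 34.8% ± 5.27 in hsf-1 OE and 36.8% ± 2.93 in the double strain (SD, n = 4). The share of his-72 was 40.8% ± 2.54, 38.6% ± 1.09, 46.1% ± 2.73 and 44.3% ± 1.31 in the same order, and that of his-71 was 5.93% ± 1.23, 7.68% ± 0.91, 10.03% ± 2.44 and 10.5% ± 1.89. The 14 H3 genes outside the variants together took 4.05% ± 0.34, 4.14% ± 0.15, 2.52% ± 0.42 and 2.58% ± 0.29. These 14 were a small part of the captured H3 RNA in every genotype.

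**Figure D5:**
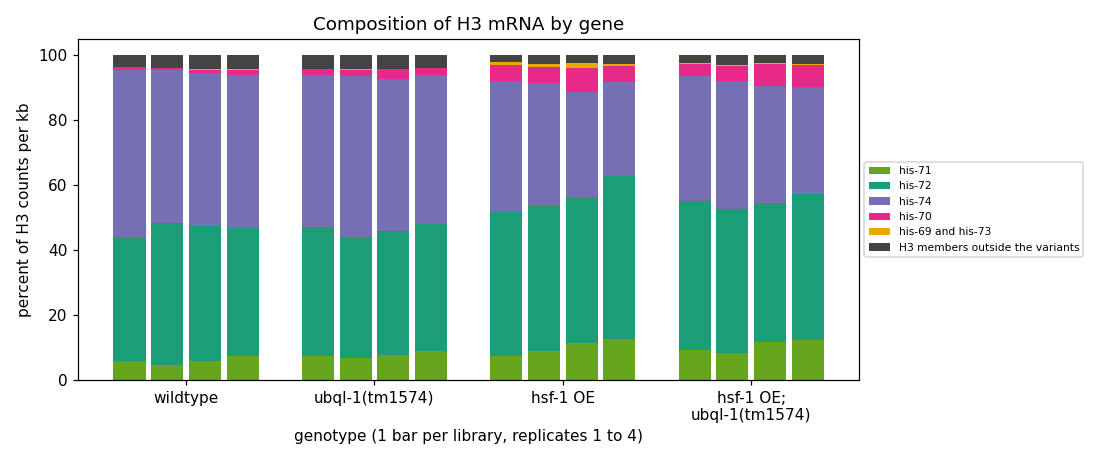
Percent of the H3 normalized counts per kb from each H3 gene (stacked bars, 1 per library, 4 per genotype). The share of his-74 is 34.8% and 36.8% on average in the 2 genotypes with uthIs235 against 48.2% in wildtype, and that of his-70 is 5.52% and 5.36% against 0.938%.

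Levels of the single variants were then compared. For his-74 the normalized counts were 4492, 4640, 4518 and 4205 in wildtype and 3697, 2847, 2457 and 2236 in hsf-1 OE, without overlap, and the log2 fold change was -0.54 (SE 0.11, adjusted p = 0.0024). Against the ubql-1 mutant it was -0.47 (SE 0.09, adjusted p = 0.0017), so it was lower with the array by less than the fold threshold in both. For his-71 it was 0.69 (SE 0.18, adjusted p = 0.0088) and 0.34 (SE 0.12, adjusted p = 0.026), with overlapping libraries. No difference in his-72 passed the test with TMM scaling, with 4195 ± 500 normalized counts in wildtype and 4079 ± 363 in hsf-1 OE (log2 fold change 0.10, SE 0.09, adjusted p = 0.37, with the sign reversed under DESeq2 and RLE scaling). When scaled to the reference genes it was higher with the array, at 0.45 (adjusted p = 0.0022) against wildtype and 0.37 (adjusted p = 0.00063) against the ubql-1 mutant. The H3 variant gene his-69 had no more than 6.92 normalized counts in any library.

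The rises were those of the H3 variant genes his-70 and his-73, which stood at ranks 8 and 18 of the 59 listed genes per kb over the 16 libraries. Gene his-70 (III, 4059715 to 4060119) gave 50.5, 27.4, 65.8 and 96.8 normalized counts among wildtype libraries, while the ubql-1 mutant gave 99.8, 113, 177 and 125. In hsf-1 OE it had 304, 265, 390 and 268, and in the double strain 203, 246, 341 and 347. The 4 genotypes were ordered wildtype, the ubql-1 mutant and then the 2 with the array, which overlapped each other. The log2 fold change was 2.48 (SE 0.33, adjusted p = 0.00029) in hsf-1 OE against wildtype and 1.20 (SE 0.22, adjusted p = 0.0014) in the double strain against the ubql-1 mutant. The nearest other gene, E03A3.5, at 472 bases, had 11.3 ± 6.84 normalized counts in wildtype and 12.9 ± 4.79 in hsf-1 OE (log2 fold change 0.31, SE 0.47, adjusted p = 0.57).

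For his-73 (II, 13183705 to 13183845) the wildtype libraries had 7.21, 8.35, 4.03 and 13.7 normalized counts and the mutant libraries 11.2, 8.24, 8.48 and 5.37. In hsf-1 OE there were 60.1, 40.5, 71.9 and 28.4, and in the double strain 24.6, 19.6, 19.4 and 20.8. The log2 fold change was 2.66 (SE 0.41, adjusted p = 0.00051) and 1.37 (SE 0.29, adjusted p = 0.0026), but his-73 passed the filter on low counts only through the libraries with the array, and with no filter its adjusted p was 0.00036 and 0.0041. Its annotated coding sequence, of 138 bases without the stop codon, is shorter than the 408 bases of his-72. In the WBcel235 annotation of Ensembl, W09H1.4 overlaps the position of his-73, while in the deposited intervals W09H1.4 lies 1247 bases and W09H1.3 lies 584 bases from his-73. W09H1.4 had 16.52 ± 6.39 normalized counts in wildtype and 72.6 ± 17.6 in hsf-1 OE (log2 fold change 2.28, SE 0.31), and W09H1.3 had 2.94 ± 1.81 and 28.1 ± 11.4 (3.26, SE 0.47). The part of these transcripts in the his-73 values was not tested.

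The ubql-1 allele alone changed no his- gene past both thresholds in the main edgeR fit. Of 25 genes tested in the ubql-1 mutant against wildtype, 0 were called and 4 had an unadjusted p under 0.05, where 2.31% of all 14183 genes were higher, 0.0987% were lower and 8.31% passed by adjusted p alone. The nearest was his-70, whose libraries did not overlap between the genotypes (log2 fold change 1.09, SE 0.34, adjusted p = 0.068). It passed under DESeq2 (adjusted p = 0.015), in edgeR fits blocked on replicate numbers (0.017) and of all 16 libraries (0.044), and without wildtype replicate 4 (log2 fold change 1.44, adjusted p = 0.033). The lowest was the H4 gene his-64, at -0.86 (SE 0.33, adjusted p = 0.11).

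In the double strain against hsf-1 OE, 0 of 24 genes tested were called and 4 had an unadjusted p under 0.05, where 0.309% of all 15555 genes were higher, 0.302% lower and 0.932% past adjusted p alone. The libraries of his-73 did not overlap (log2 fold change -1.27, SE 0.29, adjusted p = 0.097), and it passed under DESeq2 (adjusted p = 0.014), with the replicate block (adjusted p = 0.043) and without hsf-1 OE replicate 4 (log2 fold change -1.46, adjusted p = 0.040). Those of his-60 did not overlap either, at 0.50 (SE 0.20, adjusted p = 0.37).

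The interaction of array and allele was tested over all 16 libraries, where 0.658% of 15645 genes passed by adjusted p. None of the 26 his- genes tested did in the main edgeR fit, 6 had an unadjusted p under 0.05, and 1, his-70, passed under DESeq2 and with the replicate block. The log2 interaction was -1.20 for his-70 (SE 0.41, adjusted p = 0.15, under DESeq2 0.049, with the replicate block 0.026) and 0.67 for his-60 (SE 0.26, adjusted p = 0.17).

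Genes that act with core histones were compared in the same libraries. In hsf-1 OE against wildtype, htz-1, which encodes the H2A variant H2A.Z, and cpar-1, a paralogue of the centromeric H3 gene hcp-3, fell (log2 fold changes -1.02, SE 0.09, adjusted p = 6.2e-05, and -1.20, SE 0.15, adjusted p = 0.00025), while hcp-3 was at -0.70. The histone stem-loop binding protein gene cdl-1, needed for core histone supply in worms, was at -0.81 (SE 0.12, adjusted p = 0.00048). All 5 genes of histone mRNA end formation and supply passed by adjusted p alone in the lower direction, as did 13 of 13 histone chaperone genes (median log2 fold change -0.69) and 19 of 19 S phase genes tested (median -0.94), where 28.7% of all genes were lower by adjusted p alone. Past both thresholds were 1 chaperone gene, nasp-2 (-1.07), and 8 S phase genes, mcm-3, mcm-7, pcn-1, rnr-2, cdt-1, psf-1, psf-3 and orc-1, at between -1.02 and -1.33, where 3.6% of all genes were called lower. In the double strain against the ubql-1 mutant the same counts by adjusted p were 4 of 5, 13 of 13 (median -0.48) and 19 of 19 (median -0.57), where 27.7% of all genes were, and none of these lists had a member past both thresholds.

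Markers of other cell types moved in these libraries as well. In hsf-1 OE against wildtype 7 of 8 oocyte genes fell (median log2 fold change -1.22), 1 of 11 germline nuclear genes did (median -0.56), 9 of 13 sperm genes rose (median 1.20) and 7 of 8 genes of the larval moulting epidermis rose (median 3.60). Of all genes tested there, 3.6% were called lower and 22.6% higher. In the double strain against the ubql-1 mutant 1 of 8 oocyte genes fell (median -0.68), 0 of 11 germline nuclear genes were called (median -0.34), and 1 of 13 sperm genes (median 0.28) and 6 of 8 moulting genes (median 1.42) rose. There 1.87% of all genes were called lower and 12.8% higher, so the sperm count is below that share. By adjusted p alone 5 sperm genes were higher and 1 lower, where 31.5% and 27.7% of all genes were. In the ubql-1 mutant against wildtype 4 of 8 moulting genes rose (median 1.58), where 2.31% of all genes were called higher. None of the oocyte, germline nuclear and sperm genes was called in the main fit, with unadjusted p under 0.05 in 4, 8 and 11 of them. By adjusted p alone 5 of the 11 germline nuclear genes were lower, and 0 oocyte and 0 sperm genes passed, where 8.31% of all genes passed. The summed oocyte genes ran from 138600 to 190600 normalized counts in wildtype, from 125800 to 145400 in the ubql-1 mutant, from 44380 to 82720 in hsf-1 OE and from 61600 to 94600 in the double strain. For the summed germline nuclear genes these ranges were 69050 to 74880, 62260 to 67210, 36090 to 52750 and 42050 to 51530, for the sperm genes 8664 to 20210, 19200 to 28780, 23730 to 34080 and 23030 to 25760, and for the moulting genes 911 to 1091, 1084 to 2347, 1297 to 10960 and 1914 to 5069. None of the oocyte, germline nuclear, sperm and moulting genes was at 0 throughout a genotype. Of the lists for other tissues, 0 of 3 body wall muscle, 0 of 4 intestine and 0 of 4 neuron genes were called in hsf-1 OE against wildtype. By adjusted p alone 2 muscle and 2 intestine genes were higher, and 2 neuron genes were higher and 2 lower. Of all genes tested in that comparison, 38.6% were higher and 28.7% lower by adjusted p alone. There 1 of the 3 zygotic embryo genes tested rose, where 22.6% of all genes were called higher. The 3 reference genes were lower by adjusted p alone (median -0.38), as were 28.7% of all genes. The part of these shifts in the his- values was not tested, and a smaller number of germ cells and less histone RNA per germ cell cannot be told apart in these samples.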

How the data were processed

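Poly-dT selected RNA of 16 libraries was sequenced and, per the submitters' processing notes and the study's methods, aligned with HISAT2 2.0.5 to WBcel235 and counted per gene with featureCounts 1.5.0-p3. The annotation release, the strand setting and the treatment of reads matching several places are not given in the sources used here. The authors deposited raw counts per gene and library in 3 tables of 8 libraries, with gene lengths. Counts of libraries present in more than 1 table were identical. The tables list no gene with fewer than 2 counts, so genes absent from a table were set to 0 there (4.57% of cells). The authors' fold changes and p-values from DESeq2, and 48 columns of other per-library values, were not used.

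Each comparison of 4 against 4 libraries was fitted to the counts with edgeR 4.0.16 (R 4.3.3; TMM, filterByExpr, two-sided quasi-likelihood F test, Benjamini-Hochberg adjustment over all genes tested), and the interaction over all 16 libraries. Called means adjusted p under 0.05 and absolute log2 fold change over 1 (for the interaction, adjusted p alone). The code was tested on simulated data. Alternatives were DESeq2 1.42.0, RLE and reference gene scaling, no filter, 1 fit of all libraries, a replicate block and leaving out each library. Same-numbered libraries deviated together in each comparison (lowest correlation over 10274 genes 0.13, 0.27, 0.54 and 0.27, limit 0.1), so the numbers were taken to pair them. The main fits leave this pairing out, and it enters only in the replicate block. With the block 755 of all genes were called higher in the ubql-1 mutant against wildtype, in place of 328 in the main fit. The study's methods call the 4 replicates of each genotype biological. Genes named were the variants his-35, his-69, his-70, his-71, his-72, his-73 and his-74, the 3 highest per kb of each histone, and the 5 largest rises and falls called per comparison with a mean of at least 10; others were named after their values were seen. The his- genes and all lists were chosen with earlier results of these data known.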

Additional observations from a re-analysis of the deposited data

Results flagged for a closer look

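Among 88 groups of 4 libraries examined (22 his- genes in 4 genotypes), 4 had a library far from the others, and chance flags about 1 in 20 groups. The value of his-3 in hsf-1 OE replicate 4 was 21.5 normalized counts, against 7.19 to 8.997 in the others. That of his-59 in replicate 1 of the double strain was 37.97, against 51.9 to 54.4. That of his-61 in replicate 1 of the ubql-1 mutant was 95.3, against no more than 69.8 in the others. That of his-69 in replicate 4 of the double strain was 6.92, against 0 to 0.892.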

How the results depend on the processing

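In hsf-1 OE against wildtype 12 his- genes were called and the median was -0.74; without the low count filter 19 were called and the median was -0.97, and the median was -1.03 with DESeq2 (18 called), -0.89 with RLE, -0.40 when scaled to the 3 reference genes, and -0.86 in 1 fit of all 16 libraries. In the double strain against the ubql-1 mutant 8 were called and the median was -0.47; DESeq2 called 13 (median -0.73), no filter 15 (-0.62) and adjusted p alone 15, and the median was -0.20 with reference gene scaling and -0.61 in 1 fit of all libraries. In the ubql-1 mutant against wildtype 0 were called in the main fit and 1 with DESeq2, with the replicate block and in 1 fit of all libraries, and the median of -0.12 became -0.0608 with reference gene scaling and -0.15 with no filter. In the double strain against hsf-1 OE 0 were called and 1 with DESeq2 and with the replicate block, and the median of -0.06 became -0.14 with DESeq2, -0.13 with reference gene scaling and -0.14 with no filter. In the interaction 0 passed, and 1 did with DESeq2 and with the replicate block. The cause of these differences was not tested.

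Leaving out 1 library gave 9 to 13 calls and medians from -0.81 to -0.55 in hsf-1 OE against wildtype, 0 to 1 and -0.13 to -0.0506 in the ubql-1 mutant against wildtype, 0 to 1 and -0.12 to 0.0019 in the double strain against hsf-1 OE, 8 to 9 and -0.68 to -0.41 in the double strain against the ubql-1 mutant, and 0 to 1 in the interaction. For his-64 in hsf-1 OE against wildtype the call was lost without wildtype replicate 2 (-1.22) or 3 (-1.05). For his-62 in hsf-1 OE against wildtype the log2 fold change was -1.01 without wildtype replicate 1 and -1.19 without hsf-1 OE replicate 1, past the threshold, and for his-3 in the mutant background it was -1.07 without replicate 2 of the ubql-1 mutant.

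In hsf-1 OE against wildtype the sign reversed for his-35 (-0.14 with DESeq2, -0.11 with RLE, -0.0911 with no filter, -0.0822 in 1 fit of all libraries, and -0.10 to 0.0862 leaving out 1 library), his-41 (-0.0803, -0.0493, -0.0299 and -0.0211, and -0.0501 to 0.14) and his-72 (-0.10, -0.0714, -0.0483 and -0.0401, and -0.0646 to 0.15), none of them called. With reference gene scaling it reversed in the mutant background for his-35 (0.21) and his-41 (0.18). For his-70 in the double strain against hsf-1 OE it ran from -0.25 to 0.0188 leaving out 1 library. With reference gene scaling the calls of his-3 (-0.77), his-37 (-0.65), his-61 (-0.78) and his-64 (-0.95) in hsf-1 OE against wildtype and of his-59 (-0.74) in the mutant background were lost, and his-38 (1.16) and his-71 (1.04) passed. With the replicate block his-6 also passed in hsf-1 OE against wildtype (-1.04), and among the his- genes named the block changed no other call beside those of his-70 and his-73 given above. Genes with few counts limit the precision, since 26 of 59 had no more than 50 counts over 16 libraries.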
